A study of Rattus norvegicus with 4 samples.

Results

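The liver breaks down amino acids that are not used for protein, and 10 genes of this route were followed in rats anesthetized with sevoflurane or desflurane: *Sds*, *Tat*, *Got1*, *Gpt*, *Gpt2*, *Tdo2*, *Hal*, *Gls2*, *Oat* and *Prodh*. The genes were taken by symbol from the 16999 named genes analysed. They were chosen with the measured values in view, because *Sds* and *Got1* rose strongly with both agents, so their changes with the agents are a description and support nothing by themselves. Of the 10 genes, 9 had a row under the symbol given and *Prodh* was listed under its older symbol *Prodh1*. The data were 4 RNA-seq libraries of rat liver, a 0 h and a 6 h animal for each agent, and all animals were wild type. A 0 h control inhaled the agent only until it lost consciousness, and a 6 h animal inhaled it for 6 h, with sevoflurane at 4.5% and desflurane at 6%. No library was free of the agent. The series text states that the experiment was repeated with new animals at a common hour of harvest, and the study's methods give such a common hour for all rats. Those methods name young male Wistar rats that had food and water removed shortly before and breathed through nose cones, and they name the left lateral lobe as the piece of liver taken. The control and anesthetized livers of the present libraries were taken 6 h apart, so the hours under the agent, the time of day and the time without food cannot be told apart in any comparison of 6 h with 0 h. With 1 animal a group there was no replicate error and no test could be made.

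Amino groups are moved between amino acids and keto acids by aminotransferases, and enzymes such as glutaminase, histidine ammonia lyase and serine dehydratase release ammonia, which liver cells turn into urea. The carbon skeletons become pyruvate, ketone bodies or intermediates of the citric acid cycle, and much of the skeleton of glucogenic amino acids is turned into glucose in the fasted liver. Glucocorticoids and glucagon are known to raise several of these enzymes, tyrosine aminotransferase and tryptophan dioxygenase being textbook cases, and insulin opposes them. The enzymes are also placed along the liver lobule: *Sds*, *Hal* and *Gls2* are known from cells around the portal vein, and *Oat* from cells around the central vein.

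Abundance was given as TPM, which is scaled for gene length and library size and so allows levels of different genes to be compared. A gene counted as called, higher or lower, where the larger TPM exceeded 2 and the values differed by a ratio above 2, and changes are also given as differences of log2(TPM + 1). The tables imply between 3.50 and 5.57 Gb of aligned sequence per library, the least in sevoflurane 0 h, and the 10 genes were covered at least 20.4-fold in every library. The liver identity of the libraries was clear, with a summed level of 8 hepatocyte markers between 99627 and 111628 TPM. Of 5 pancreatic markers, *Prss1* and *Pnlip* were listed at 0 in all 4 libraries, and *Cpa1* and *Amy2a3* reached at most 0.036 and 0.67 TPM. *Cela1*, also on that list, was at 24.5 and 25.2 TPM with sevoflurane at 0 h and 6 h, and at 23.9 and 29.7 TPM with desflurane. Of 3 muscle markers, *Ckm* and *Myh4* were listed at 0 in all 4 libraries and *Acta1* reached at most 0.037 TPM. The 3 red blood cell markers summed to 453 and 1214 TPM with sevoflurane at 0 h and 6 h and to 728 and 1342 TPM with desflurane. All 3 of them were called higher with sevoflurane and 0 with desflurane, where 5.04% and 4.1% of all genes were called higher. The desflurane ratios of *Hbb*, *Hba1* and *Alas2* were 1.78, 1.99 and 1.86, close under the limit. Their desflurane controls stood at 1.69, 1.46 and 1.94 times the sevoflurane controls. The part of these 3 markers in the results was not tested. Kupffer cell markers (4 of 4 detected) summed to between 192 and 252 TPM. In whole liver, fewer cells that express a gene and less RNA per cell cannot be told apart.

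**Figure D1:**
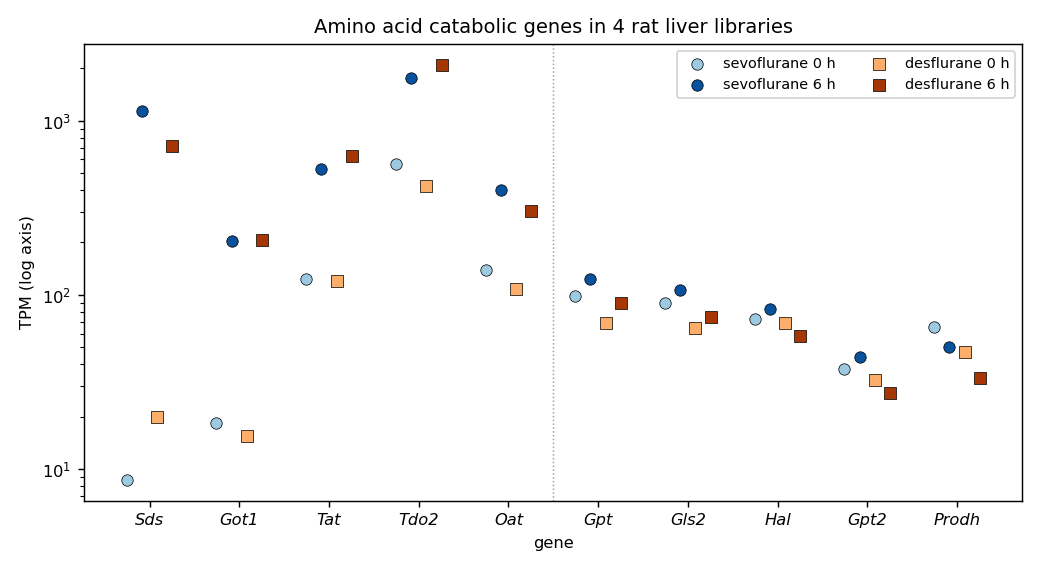
TPM on a log axis of the 10 amino acid catabolic genes in the 4 libraries, 1 point per library, circles for sevoflurane, squares for desflurane, pale for 0 h and dark for 6 h. Left of the dotted line both 6 h points lie above both 0 h points for each of the 5 genes, most widely for *Sds* (8.66 and 19.8 against 1135 and 714), and right of it the 0 h and 6 h points of each of the 5 genes overlap.

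Of the 10 genes, 5 were called higher after 6 h of sevoflurane and the same 5 after 6 h of desflurane, namely *Sds*, *Got1*, *Tat*, *Tdo2* and *Oat*. The same rule called 5.04% of all genes above the minimum higher with sevoflurane, 4.1% with desflurane and 2.54% with both. None of the 10 was called lower, against 3.71% of all genes with sevoflurane, 5.55% with desflurane and 1.5% with both. These contrasts chose the genes, so the shares are printed for scale only. The member nearest the limit from inside was *Oat*, with ratios of 2.89 and 2.83, and the nearest from outside were *Gpt* on the higher side, with ratios of 1.24 and 1.32, and *Prodh* on the lower side, at 1.31-fold and 1.42-fold below its controls. With the agents in the order sevoflurane and desflurane, the median log2 difference of the 10 genes was 0.92 and 0.94, beside 0.05 and -0.10 over all genes above the minimum. Without *Sds* and *Got1*, the genes named as the reason for the choice, the other 8 had medians of 0.28 and 0.30, with 3 called higher by each agent. The other 8 were also chosen with these values in view, so this is a description too.

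*Sds* encodes serine dehydratase, which turns serine into pyruvate and ammonia and also acts on threonine. Its level was 8.66 TPM in sevoflurane 0 h, 1135 TPM in sevoflurane 6 h, 19.8 TPM in desflurane 0 h and 714 TPM in desflurane 6 h. Both 6 h livers stood far above both controls, by 131-fold with sevoflurane and 36.1-fold with desflurane. The log2 differences of 6.88 and 5.10 placed *Sds* at rank 2 and rank 4 of the 9201 genes with a mean of at least 1 TPM. The size of the fold depended on the control, since the desflurane control already held 2.28 times the *Sds* of the sevoflurane control. This was the only one of the 10 genes called between the controls, where 1.96% of all genes were called higher and 0.799% lower in the desflurane control. The gene lies on the minus strand of chromosome 12, at chr12:41620430-41627741 of the rn6 genome build that the submitters' processing notes name, as do the positions below.

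*Got1* encodes the cytosolic aspartate aminotransferase, which exchanges amino groups between aspartate and glutamate and works in the malate-aspartate shuttle. Its level was 18.5 TPM in sevoflurane 0 h, 203 TPM in sevoflurane 6 h, 15.5 TPM in desflurane 0 h and 207 TPM in desflurane 6 h. The controls were close to each other and so were the 6 h livers, unlike for *Sds*. The log2 difference was 3.39 with sevoflurane and 3.65 with desflurane, the latter a ratio of 13.3, at rank 18 and rank 11 of the same 9201 genes. *Got1* lies at chr1:263246248-263269762 on the minus strand.

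*Tat* encodes tyrosine aminotransferase, the first and rate-limiting step of tyrosine breakdown. Its level was 123 TPM in sevoflurane 0 h, 529 TPM in sevoflurane 6 h, 119 TPM in desflurane 0 h and 623 TPM in desflurane 6 h. The controls differed by a log2 value of -0.04, desflurane minus sevoflurane, the smallest difference between controls among the 10 genes. The rise was 4.29-fold with sevoflurane and 5.22-fold with desflurane. The gene lies at chr19:41675639-41686195 on the minus strand.

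*Tdo2* encodes tryptophan 2,3-dioxygenase, which opens the indole ring of tryptophan as the first step of the kynurenine route. Its level was 565 TPM in sevoflurane 0 h, 1766 TPM in sevoflurane 6 h, 422 TPM in desflurane 0 h and 2093 TPM in desflurane 6 h, the highest of the 10 genes in each library. The desflurane animals had the lower control and the higher 6 h level, so that the ratio was 3.13 with sevoflurane and 4.96 with desflurane. The gene lies at chr2:180897059-180914919 on the minus strand.

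*Oat* encodes the mitochondrial ornithine aminotransferase, which joins ornithine to the metabolism of glutamate and proline. Its level was 139 TPM in sevoflurane 0 h, 402 TPM in sevoflurane 6 h, 108 TPM in desflurane 0 h and 305 TPM in desflurane 6 h. Both desflurane values were below their sevoflurane counterparts, yet the ratios were close, at 2.89 and 2.83. The gene lies at chr1:204562289-204582070 on the minus strand. With the ratio limit raised to 3, *Oat* was no longer called with either agent and *Sds*, *Got1*, *Tat* and *Tdo2* still were.

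Promoter sequence was at hand in RefSeq (build GRCr8, another build than that of the tables) for 6 of the 10 genes, as windows from 250 bases before to 50 bases after the annotated start. The upstream 250 bases of the 4 genes among the 5 above that had a window are shown because these genes were called higher with both agents. They are written 5′ to 3′ in the direction of the gene, with each CCAAT, the core of the CCAAT box, or its reverse complement ATTGG in capitals.
Tat: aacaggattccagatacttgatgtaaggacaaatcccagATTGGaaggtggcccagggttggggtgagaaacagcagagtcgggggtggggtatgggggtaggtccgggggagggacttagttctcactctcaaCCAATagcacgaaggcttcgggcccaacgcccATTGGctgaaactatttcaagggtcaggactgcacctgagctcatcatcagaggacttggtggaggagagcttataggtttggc
Got1: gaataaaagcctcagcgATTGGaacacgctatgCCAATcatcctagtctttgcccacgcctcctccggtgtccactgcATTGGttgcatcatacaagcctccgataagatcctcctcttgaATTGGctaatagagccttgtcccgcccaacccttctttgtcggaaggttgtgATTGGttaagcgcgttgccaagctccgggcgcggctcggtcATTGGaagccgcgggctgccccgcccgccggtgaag
Tdo2: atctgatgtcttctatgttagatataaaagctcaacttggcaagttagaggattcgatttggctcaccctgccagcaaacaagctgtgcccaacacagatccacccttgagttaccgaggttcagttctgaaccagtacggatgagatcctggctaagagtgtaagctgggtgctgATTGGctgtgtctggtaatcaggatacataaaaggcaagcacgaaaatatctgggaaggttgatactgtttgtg
Oat: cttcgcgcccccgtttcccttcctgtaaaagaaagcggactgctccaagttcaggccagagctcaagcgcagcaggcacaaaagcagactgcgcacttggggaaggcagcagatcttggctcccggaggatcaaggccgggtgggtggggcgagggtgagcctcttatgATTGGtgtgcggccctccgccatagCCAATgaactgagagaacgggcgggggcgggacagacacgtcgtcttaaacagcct
The windows lie at chr19:54856354-54856603 (plus strand) for *Tat*, chr1:252329872-252330121 (minus) for *Got1*, chr2:169585587-169585836 (minus) for *Tdo2* and chr1:196797755-196798004 (minus) for *Oat*, all on GRCr8. CCAAT was looked for after the sequences had been seen, on both strands, and its share is that of all 33469 windows. It was found 6 times in the *Got1* window, first bases at -233, -217, -172, -129, -77 and -36 from the start, a number reached by 14 windows in all (0.0418%). *Tat* held it 3 times, which 3.02% of windows reached, *Oat* 2 times (11.2%) and *Tdo2* 1 time (37.5%). *Gpt2*, which was not called, held none, *Gls2* held 1 in the first of its 2 windows, and *Got2*, the mitochondrial partner of *Got1*, held none. Other letters were searched on both strands in the full windows. AGAACA, an arm of the glucocorticoid receptor element, was in none of the 6 genes and in 20.7% of all windows, and its facing pair 3 bases apart was in none and in 0.0149%. The CREB element TGACGTCA was in none and in 1.83%, and its shorter form TGACG, which the longer one contains, was in *Oat* at -1 and in the first *Gls2* window at -224 and -166, and in 21.2% of all windows. TTGCNNAA of the C/EBP factors was in none and in 10.6%, TTATGTAA of the factors related to *Dbp* in none and in 0.893%, and the E-box CACGTG in none and in 6.42%. No match says only that the letters are not in these windows.

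The other 5 genes were called with neither agent, and for each of them the range of the 0 h livers overlapped that of the 6 h livers. *Gpt*, the cytosolic alanine aminotransferase that links alanine to pyruvate, was at 99.1 TPM in sevoflurane 0 h, 123 TPM in sevoflurane 6 h, 68.6 TPM in desflurane 0 h and 90.3 TPM in desflurane 6 h. *Gls2*, the liver form of glutaminase, was at 89.7, 107, 64.4 and 74.2 TPM in the same order of libraries. Both were somewhat above their own control with either agent, by 1.24-fold and 1.32-fold for *Gpt* and by 1.19-fold and 1.15-fold for *Gls2*, and the desflurane 6 h value of each stayed below the sevoflurane control. *Hal*, histidine ammonia lyase, the first step of histidine breakdown, was at 73.1, 83.2, 68.6 and 58.3 TPM. *Gpt2*, the mitochondrial alanine aminotransferase, was at 37.8, 44.1, 32.3 and 27.3 TPM. The log2 differences of *Hal* and *Gpt2* were positive with sevoflurane (0.18 and 0.22) and negative with desflurane (-0.23 for both). *Prodh*, proline dehydrogenase, which starts proline breakdown in mitochondria, was at 65.8, 50.1, 47.2 and 33.3 TPM and was the only one of the 10 below its control with both agents, by 1.31-fold and 1.42-fold. The rn6 positions were chr7:117759083-117761932 for *Gpt*, chr7:2605719-2621853 for *Gls2*, chr7:34326087-34356413 for *Hal* and chr11:87058616-87075785 for *Prodh*, all on the plus strand, and chr19:22599004-22631739 on the minus strand for *Gpt2*.

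The order of the 10 genes within a library was rearranged. *Tdo2* was first in all 4 libraries. *Sds* was in place 10 in the sevoflurane control and place 9 in the desflurane control, and was second only to *Tdo2* in both 6 h livers. *Got1* went from place 9 and place 10 to place 5 with sevoflurane and desflurane, above *Gpt*, *Gls2*, *Hal*, *Gpt2* and *Prodh*. Among all genes, *Sds* moved from rank 4192 to rank 68 in the sevoflurane pair and from rank 2507 to rank 107 in the desflurane pair. The share of *Sds* in the summed TPM of the 10 genes was 0.71% and 25.6% in the sevoflurane animals at 0 h and 6 h, and 2.05% and 16.9% in the desflurane animals. The share of *Tdo2* was 46.3% and 39.7% in the former and 43.7% and 49.5% in the latter. Summed, the 10 genes stood at 1220 TPM in the sevoflurane control and 4443 TPM after 6 h, a ratio of 3.64. The desflurane pair stood at 966 and 4225 TPM, a ratio of 4.38. The 5 genes that were not called summed to 365 and 408 TPM with sevoflurane and to 281 and 283 TPM with desflurane.

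Several of the enzymes have a close relative, and the ratio of the pair within a library does not depend on the scaling between libraries. *Got2*, the mitochondrial aspartate aminotransferase, stayed between 187 and 214 TPM. *Got1* was therefore at 0.0862 and 0.0796 of *Got2* in the controls, and at 1.09 and 1.06 of it in the 6 h livers of sevoflurane and desflurane. The cytosolic form thus reached the level of the mitochondrial form with both agents. *Sdsl*, which encodes a relative of serine dehydratase, was between 5.96 and 10.6 TPM, and the ratio of *Sds* to it was 1.45 and 2.27 in the sevoflurane and desflurane controls and 108 and 112 in the 6 h livers. The ratio of *Gpt* to *Gpt2* stayed between 2.12 and 3.30. *Prodh2*, hydroxyproline dehydrogenase, was at 51.6, 62.2, 63.4 and 48.5 TPM in the order above, and the ratio of *Prodh* to it was 1.27, 0.805, 0.744 and 0.687.

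**Figure D2:**
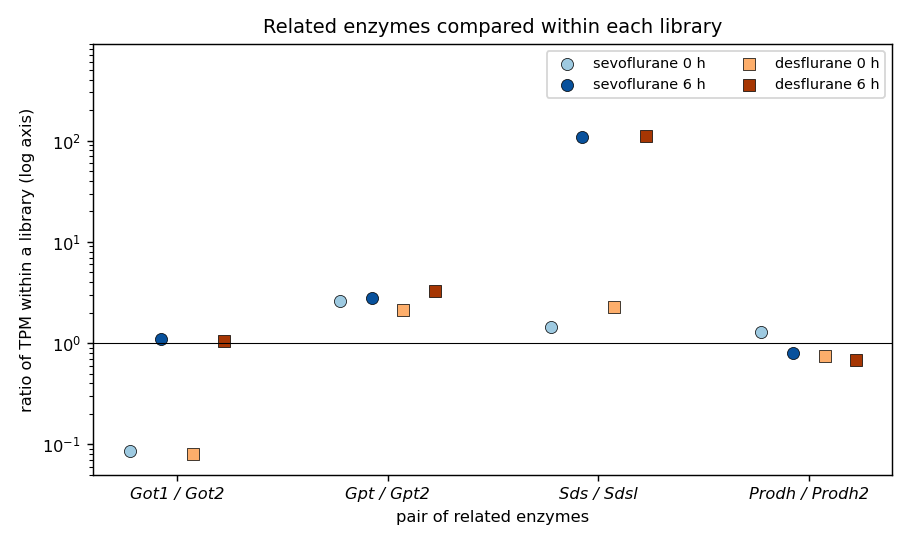
Ratio of TPM of 4 enzymes to a related enzyme within each library, on a log axis, 1 point per library, the line marking equal levels. *Got1* lies at 0.0862 and 0.0796 of *Got2* at 0 h and at 1.09 and 1.06 at 6 h, *Sds* rises above 100-fold of *Sdsl*, and the 4 points of *Gpt* to *Gpt2* lie close together.

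Animals that inhaled different agents for the same time were compared next, a contrast in which agent and animal cannot be told apart. Of the 10 genes, 9 were lower in the desflurane control than in the sevoflurane control, with log2 differences between -0.04 for *Tat* and -0.52 for *Gpt*, and *Sds* was higher by 1.11. Over all genes above the minimum, 5822 were higher and 2441 lower in the desflurane control, with a median of 0.12, the opposite lean to that of the 10 genes. At 6 h, 7 of the 10 were lower with desflurane, with log2 differences down to -0.67 for *Sds* and *Gpt2*, and *Tat*, *Got1* and *Tdo2* differed by 0.24, 0.02 and 0.24 upward. All genes above the minimum leaned the same way at 6 h, with 3778 higher and 4451 lower with desflurane and a median of -0.03. None of the 10 was called at 6 h, where 2.21% of all genes were called higher and 1.77% lower with desflurane. *Gpt*, *Gpt2*, *Hal*, *Gls2*, *Oat* and *Prodh* were lower with desflurane both between the 0 h animals and between the 6 h animals. This held under the deposited scale and under both other scalings tried. At 6 h *Sds* stood at 1.59 times the desflurane level in the sevoflurane liver, while *Got1* was within 1.02-fold between agents.

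The 10 genes were set beside the other enzymes of amino acid breakdown, a list of 89 genes of which 85 were found, 75 of them besides the 10. Of those 75, sevoflurane called 5 up and 3 down, and desflurane called 3 up and 0 down, and 66 were called with neither agent. Above the minimum were 72 of them with sevoflurane and 71 with desflurane. Of all genes above the minimum, 5.04% were called higher and 3.71% lower with sevoflurane, and 4.1% and 5.55% with desflurane. The median log2 difference of the 75, taken over those above the minimum, was 0.01 with sevoflurane and -0.04 with desflurane. The summed TPM of the 75 was 12274 in the sevoflurane control and 14079 after 6 h, a ratio of 1.15, and 11616 and 13181 in the desflurane pair, a ratio of 1.13. The summed ratios of the 10 genes were 3.64 and 4.38, as given above.

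In the breakdown of tyrosine, *Tat* was the enzyme called higher. The log2 differences of the 4 enzymes after *Tat* (*Hpd*, *Hgd*, *Gstz1* and *Fah*) lay between -0.40 and 0.20, and *Hpd*, the next of them, was at 1127, 1160, 996 and 1019 TPM. In the breakdown of tryptophan, *Tdo2* was called higher while 0 of the 5 later enzymes found were called. Of all genes above the minimum, 5.04% were called higher and 3.71% lower with sevoflurane, and 4.1% and 5.55% with desflurane. At such shares, 0 calls among 5 genes is the usual outcome. The median log2 difference of the 5 later enzymes was -0.48 with sevoflurane and -0.60 with desflurane. *Kynu*, kynureninase, was at 237, 125, 273 and 162 TPM and *Acmsd*, which diverts the route away from NAD synthesis, at 29.8, 15.6, 21.4 and 11.9 TPM, both lower in each 6 h liver than in either control. Against their own controls, *Kynu* was 1.89-fold and 1.69-fold lower and *Acmsd* 1.91-fold and 1.79-fold lower with sevoflurane and desflurane, short of the limit of 2. Against the control of the other agent, *Kynu* was called lower with sevoflurane (log2 difference -1.12) and *Acmsd* with desflurane (-1.25). *Haao*, at 142, 155, 149 and 123 TPM, was the only one of the 5 with a positive difference, with sevoflurane.

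In serine and glycine breakdown, 14 enzymes besides *Sds* were above the minimum with each agent, and none of them was called higher. *Gldc*, the decarboxylase of the glycine cleavage system, was at 26.0, 11.2, 17.4 and 11.1 TPM and was called lower with sevoflurane. The call rested on the control animal: against the control of the other agent it was lost with sevoflurane (log2 difference -0.59) and made with desflurane (-1.15). In the breakdown of histidine, *Hal* was not called, but *Amdhd1*, a later enzyme of the route, was at 28.9, 63.5, 24.7 and 26.6 TPM and was called higher with sevoflurane and, between the 6 h livers, lower in that of desflurane. Among the aminotransferases, *Kyat1*, named here after its values were seen, was at 22.6, 49.8, 28.5 and 45.6 TPM and was called higher with sevoflurane. With the controls exchanged, it was called with desflurane (0.98) and not with sevoflurane (0.78). Of 18 genes found for branched chains and propionate, *Dbt*, the transacylase subunit of the branched-chain keto acid dehydrogenase, was called higher with desflurane, at 22.2, 34.5, 19.0 and 62.2 TPM, and 0 with sevoflurane. Above the minimum were 17 of the 18 with sevoflurane and 16 with desflurane. Of all genes above the minimum, 5.04% were called higher and 3.71% lower with sevoflurane, and 4.1% and 5.55% with desflurane.

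Besides the 5 genes above, 71 enzymes of the list were above the minimum with both agents, and 2 of them were called higher with both. This is near the share of all genes called higher with both, 2.54%. *Mat1a*, which makes S-adenosylmethionine from methionine, was at 373, 1573, 489 and 1436 TPM, and *Aass*, the first enzyme of lysine breakdown, at 77.8, 172, 71.4 and 171 TPM. In both, the 6 h livers lay above both controls, and *Aass* was nearly equal between agents at each time. *Cth*, cystathionine gamma-lyase, which makes cysteine, had the opposite direction, with 516, 113, 329 and 179 TPM. It was called lower with sevoflurane, by 4.56-fold, and not with desflurane, where its log2 difference was -0.88. *Aspg*, an asparaginase, was at 32.8, 78.4, 41.3 and 52.4 TPM and was called higher with sevoflurane, a call that was lost against the desflurane control (log2 difference 0.91). Of the 85 genes of the list found, 7 were called with both agents, 7 with 1 agent and 71 with neither. None was called in opposite directions, but few were called at all and that share was not computed over all genes.

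**Figure D3:**
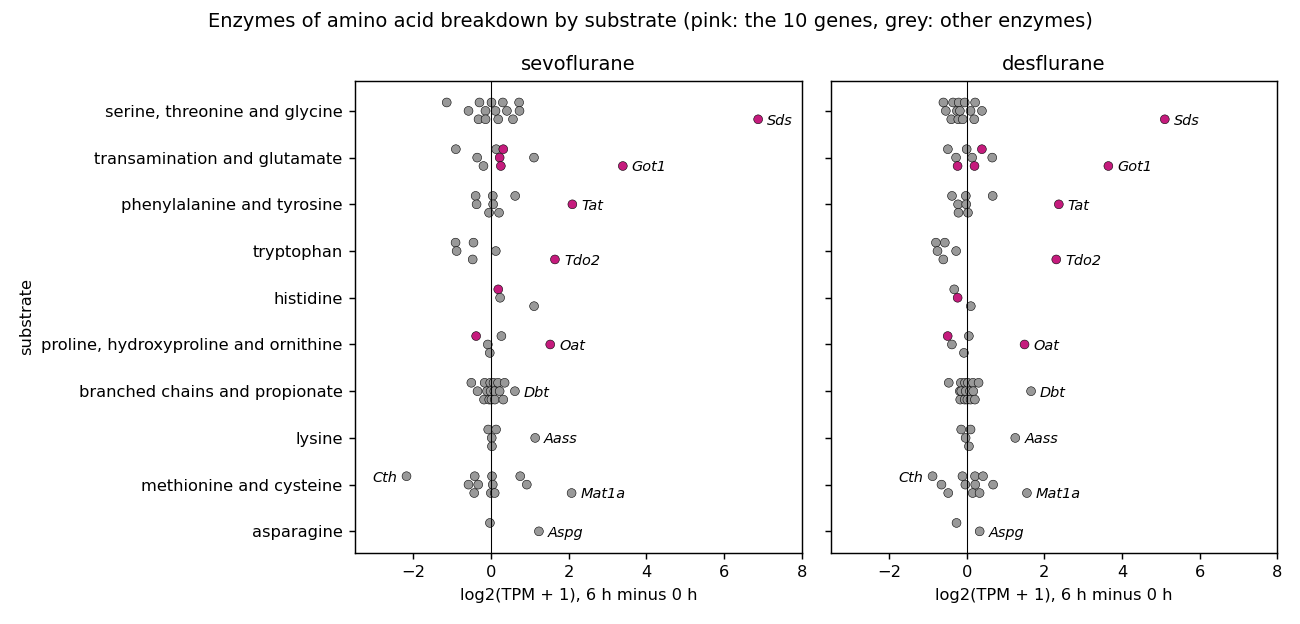
Difference of log2(TPM + 1) between the 6 h and the 0 h library of each agent for the catabolic enzymes with a mean of at least 1 TPM, grouped by substrate, 1 point per gene, the height within a group having no meaning. *Sds* (6.88 and 5.10), *Got1*, *Tat*, *Tdo2* and *Oat* lie to the right of the other enzymes of their own substrate in both panels, and *Cth* lies farthest to the left.

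Regulators known for these enzymes were also listed, 17 in all, of which sevoflurane called 5 up and 0 down and desflurane called 6 up and 2 down. Above the minimum were 15 of the 17 with sevoflurane and 16 with desflurane. Of all genes above the minimum, 5.04% were called higher and 3.71% lower with sevoflurane, and 4.1% and 5.55% with desflurane. *Klf15*, a transcription factor known for control of amino acid catabolism in fasting, was at 12.7, 49.7, 14.3 and 39.9 TPM. *Ppara*, the fatty acid receptor of the fasted liver, was at 9.70, 32.1, 12.7 and 43.6 TPM. *Foxo1*, which insulin keeps out of the nucleus, was at 2.45, 5.27, 3.06 and 7.44 TPM. *Ppargc1a*, a coactivator of gluconeogenic genes, was at 0.026, 2.48, 0.41 and 9.09 TPM. These 4 were called higher with both agents, and between the 6 h livers *Ppargc1a* was also called higher with desflurane. *Cebpb*, a factor of the C/EBP family, was at 42.3, 79.3, 28.4 and 168 TPM and *Irs2*, an adaptor of the insulin receptor, at 0.66, 1.46, 0.50 and 3.15 TPM. Both were called higher with desflurane and not with sevoflurane, and both were also called higher with desflurane between the 6 h livers. *Cebpd* was called higher with sevoflurane, at 1.23, 2.59, 2.84 and 3.85 TPM, but it was also called higher in the desflurane control than in the sevoflurane control, and the sevoflurane 6 h value lay below the desflurane control. *Creb1*, at 7.20, 5.38, 8.23 and 3.20 TPM, and *Foxa2*, at 2.48 TPM in desflurane 6 h and 2.83-fold below the desflurane control, were called lower with desflurane. With sevoflurane *Foxa2* was at 9.25 TPM at 0 h and 4.73 TPM at 6 h, 1.96-fold lower, and was not called. *Nr3c1*, the glucocorticoid receptor, was at 52.2, 28.5, 36.4 and 24.9 TPM, below either control in both 6 h livers and not called.

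Markers of the lobule were read because the 10 genes are known from different zones. Of 7 periportal markers, 2 were called higher with sevoflurane (*Arg1* and *Pck1*), and 2 higher (*Ass1* and *Arg1*) and 1 lower (*Cyp2f4*) with desflurane. Those called with 1 agent went the same way with the other: *Pck1* by 1.87-fold with desflurane, and *Ass1* by 1.82-fold and *Cyp2f4* by 1.77-fold with sevoflurane. Of 8 pericentral markers, 0 were called with sevoflurane, and 2 higher (*Cyp2e1* and *Slc1a2*) and 1 lower (*Tbx3*) with desflurane. With sevoflurane these went the same way just short of the limit of 2, by 1.87-fold, 1.99-fold and 1.96-fold, so the cutoff sets the agents apart here. *Tbx3* was near the minimum, at 2.04 TPM in the desflurane control and 1.25 TPM in the sevoflurane control. Only 5 of these 8 were above the minimum with sevoflurane and 6 with desflurane. The shares of all genes were 5.04% higher and 3.71% lower with sevoflurane, and 4.1% and 5.55% with desflurane. *Glul*, glutamine synthetase, the classic marker of the cells at the central vein, stayed between 127 and 152 TPM. Of the 10 genes, *Sds* (portal) and *Oat* (central) were called higher, and *Hal* and *Gls2* (both portal) were not.

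The genes with the most similar pattern over the 4 libraries were found among 9201 genes by the distance between profiles of log2(TPM + 1) centred on their mean, where 0 is an identical profile. Nearest to *Sds*, whose own profile had a length of 6.06, was *Cyp2b1*, a cytochrome P450 of drug metabolism, at a distance of 0.13 and with 5.73, 790, 12.1 and 465 TPM. It was followed by *Dbp* (1.03), *Upp2* (1.17), *Por* (1.93) and *Zfp354a* (2.14). Like *Sds*, *Cyp2b1* was higher with desflurane between the controls and lower with desflurane between the 6 h livers. Nearest to *Tat*, with a profile length of 2.24, were, among others, *Tp53i13* (0.19), *Klf9* (0.20), *Ccne1* (0.27) and *Ptp4a1* (0.28). *Klf9*, a transcription factor, was at 10.2, 46.8, 11.7 and 61.5 TPM. Nearest to *Got1*, with a profile length of 3.52, were *Alas1* (0.52), *Usp2* (0.56), *Ciart* (0.69), *Edem1* (0.70) and *Noct* (0.74). *Alas1*, the first enzyme of heme synthesis, was at 73.5, 582, 60.9 and 979 TPM. Some neighbours were near the floor in the sevoflurane and desflurane controls, where the pseudocount of 1 shapes the distance. These were *Usp2* (0.54 and 0.94 TPM), *Ciart* (0 and 0.24), *Noct* (0.62 and 1.66), *Dbp* (0.40 and 1.92) and *Ccne1* (0.60 and 0.29). The 3 lists of 5 shared no gene, and with 4 libraries such likeness is a description of these animals.

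The tables also held loci assembled from the reads without regard to the gene names, which gave a second reading of the same libraries. Each of the 10 genes had 1 assembled locus on its strand in every library, covering at least 99.8% of the gene. The TPM of the locus differed from that of the named gene by between -2.16% and 8.82%, the largest for *Prodh* in sevoflurane 6 h, and the locus of *Sds* was at 8.86, 1149, 19.9 and 714 TPM.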

How the data were processed

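Total RNA of liver pieces kept in RNAlater was made into stranded libraries with removal of ribosomal RNA, per the labels, and the submitters' processing notes name HISAT2, SAMtools, StringTie and the rn6 build. The study's methods give versions for libraries of a common harvest hour, which these are not, so none is given here. A StringTie gene table was deposited per library. Its TPM column was handled as a score, because the assembled loci deposited by the authors fill the whole TPM total and the named rows come on top, at 0.766 to 0.789 of it. The deposited FPKM and the deposited coverage (signal, mean depth per base) served to estimate aligned bases. Groups were taken from the treatment labels.

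Rows of a symbol were summed and rows spanning 200 bp or less left out, which took 17455 symbols to 16999. A call needed a TPM above 2 in the higher library and a ratio above 2, and log2 differences used a pseudocount of 1. No p-value was computed with 1 library per group. Python 3.11.15 with pandas 2.3.3 was used, and the call rule was tested on simulated data. Without read counts, counting error could not be computed. A TPM of 2 meant a coverage of 4.72 in sevoflurane 0 h and at least 6.84 elsewhere.

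The members and all gene lists were chosen with earlier results of these data known. The genes named were the 10 members, related enzymes, list genes called with both agents and the 5 largest calls with a single agent, called regulators, and the 5 nearest profiles of *Sds*, *Tat* and *Got1*, of which some are not reported here. Others are enzymes that adjoin a member in its route, markers, *Nr3c1* and *Kyat1*, chosen after their values were seen. Alternatives were another minimum, ratio, scaling, pseudocount, control, handling of rows and the assembled locus.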

Additional observations from a re-analysis of the deposited data

Results flagged for a closer look

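Of the 10 genes and their relatives, 4 had log2 differences of opposite sign with the agents, and *Got2* was below its control with sevoflurane and level with it with desflurane, each in 1 animal against 1 control. The differences between agents were not tested. The desflurane log2 difference minus the sevoflurane one was -0.45 for *Gpt2*, -0.42 for *Hal*, -1.13 for *Sdsl*, -0.64 for *Prodh2* and 0.20 for *Got2*. *Gpt2* and *Hal* differed by 0.22 and 0.18 with sevoflurane and by -0.23 each with desflurane. *Sdsl* differed by 0.73 and -0.40 and *Prodh2* by 0.26 and -0.38, and *Got2* by -0.20 and 0.0001. None of these 5 genes was called with either agent.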

How the results depend on the processing

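No paired analysis was possible because each group has 1 library and the labels give no replicate numbers. The calls of the 10 genes with each agent stayed at 5 higher and 0 lower under every alternative tried except a ratio above 3, where *Oat* dropped out and 4 remained with each agent. That ratio also took the catabolic list from 10 to 5 higher and from 3 to 1 lower with sevoflurane, from 8 to 5 higher with desflurane, and the 1 call between the controls to 0. When set against the other agent's control, the ratio of the summed TPM became 4.60 with sevoflurane and 3.46 with desflurane, the list had 8 in place of 10 genes higher with sevoflurane (without *Kyat1* and *Aspg*), and with desflurane 4 genes of the list were lower (*Gldc*, *Acmsd* and *Cth* among them) in place of 0. With that control the log2 difference was 5.77 and 6.21 for *Sds*, and the sign turned for *Gpt* (-0.13) and *Gls2* (-0.27) with desflurane and for *Prodh* (0.09) with sevoflurane. Scaling each library by the median of its ratios turned the median of the catabolic list from 0.04 to -0.015 (sevoflurane) and from -0.03 to 0.08 (desflurane). It moved the share of higher among all calls from 57.6% to 51.5% (sevoflurane) and from 42.5% to 53.4% (desflurane). Counts over all genes changed most with no minimum (1675 higher and 1353 lower with sevoflurane, 1523 and 1665 with desflurane), with a minimum of 5 (298 and 195, 258 and 271), with a ratio above 3 (166 and 118, 169 and 142) and with the other control (271 and 332, 508 and 381). The cause of these shifts was not tested. The sevoflurane control had the fewest aligned bases, so its low values, *Sds* among them, are the least precise.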
